A study of Mus musculus with 12 samples.

Results

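The genes described here are 9 control points of hepatic glucose production and use: Pck1, G6pc, Fbp1, Pcx and Slc37a4 of gluconeogenesis, the glucose transporter gene Slc2a2, the glycolytic genes Pklr and Pfkl, and the coactivator gene Ppargc1a. They were chosen by symbol, with earlier results of these data known, and all 9 of the 9 symbols were found among the 38926 genes counted. RNA was sequenced from the livers of 12 mice, 3 in each of 4 groups: wild-type (WT) and Rev-erbα-/- (Rev KO) mice killed at ZT8, and WT and Rev KO mice killed at ZT20. Zeitgeber time (ZT) counts hours from lights on, so ZT8 lies in the light phase, when mice mostly rest, and ZT20 in the dark phase, when they are active. All animals were 12 weeks old and of a mixed 129Ola/C57BL6 background, and no animal received a treatment according to the labels. The study's methods describe male mice with free access to food and a knockout line bred from heterozygous pairs, so the deletion was not limited to hepatocytes. The comparisons ask whether these transcripts differed in the absence of REV-ERBα, and between light and dark phase.

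Gluconeogenesis builds glucose from lactate, amino acids and glycerol. It shares most reactions with glycolysis, but pyruvate carboxylase, phosphoenolpyruvate carboxykinase, fructose-1,6-bisphosphatase and glucose-6-phosphatase bypass the steps that glycolysis drives only in the other direction, among them those of pyruvate kinase and phosphofructokinase. PGC-1α, the product of Ppargc1a, coactivates the gluconeogenic genes in the fasted liver. REV-ERBα is a nuclear receptor that represses genes carrying its response element (RORE), and its level in liver peaks in the light phase.

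The 12 libraries held between 17641809 and 26060192 reads on genes, so 3 reads corresponded to between 0.115 and 0.170 CPM (counts scaled to library size). Every member had at least 155 reads in each library. Nr1d1, the gene that encodes REV-ERBα, had 129, 96.2 and 75.3 CPM in the WT livers at ZT8 and 63.0, 71.9 and 80.6 CPM in the livers labeled Rev KO. At ZT20 it had between 1.86 and 2.28 CPM in WT and between 2.09 and 3.57 CPM in Rev KO. These ranges overlap at both times. The reads were summed over all exons, and the deleted part of the gene is not given in the sources used here. Nr1d1 therefore did not check the labels, and Rev KO below means the libraries labeled so. Hepatocyte markers (5 genes) summed to between 52668 and 102469 CPM, whereas 3 kidney markers summed to at most 0.0519 CPM and 3 pancreas markers to at most 1.22 CPM. Replicates 2 and 3 of WT at ZT8 stood apart: the sum of 5 acute-phase genes was 16757 and 21429 CPM in them, 2031 CPM in replicate 1, between 1704 and 1809 CPM in Rev KO at ZT8 and between 2239 and 2577 CPM in all 6 livers at ZT20. Many results that use WT at ZT8 are therefore also given without these 2 livers, which leaves replicate 1 alone and assumes that it varied like the other groups. Counts of list and marker genes called are given for all 12 libraries only. A result printed without that fit is not shown to hold in it. In whole liver, fewer cells of a type and less RNA per cell cannot be told apart.

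The upstream stretches of Ppargc1a and Pck1 are shown because Ppargc1a was the member called between genotypes and Pck1 the member that varied most among livers. The sequences are from RefSeq on GRCm38.p6, written 5′ to 3′ on the strand of the gene, and stop before annotated transcribed sequence. Ppargc1a is the 249 bases at chr5:51567727-51567975 on the minus strand, and Pck1 the 225 bases at chr2:173152823-173153047 on the plus strand. Capitals mark CGTCA, the reverse complement of TGACG, which is the core of the cAMP response element.
Ppargc1a: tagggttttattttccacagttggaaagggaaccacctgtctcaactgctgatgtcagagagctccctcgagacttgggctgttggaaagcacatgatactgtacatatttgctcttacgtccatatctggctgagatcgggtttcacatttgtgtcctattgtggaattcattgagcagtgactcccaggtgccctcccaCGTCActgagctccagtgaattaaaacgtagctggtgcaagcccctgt
Pck1: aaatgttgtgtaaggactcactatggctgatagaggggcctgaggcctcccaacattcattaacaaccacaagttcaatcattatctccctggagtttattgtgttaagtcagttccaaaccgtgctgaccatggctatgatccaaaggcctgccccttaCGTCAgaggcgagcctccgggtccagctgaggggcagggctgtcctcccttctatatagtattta
The match lies 49 to 45 bases before the RefSeq start of Ppargc1a and 90 to 86 bases before that of Pck1.

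The RORE core TAGGTCA, searched on both strands in the 250 bases before each RefSeq start, was found for 3 of the 9 members, against 2.55% of 27025 genes searched in the same way. The 3 stretches are shown with 10 bases on each side, and capitals mark the core or its reverse complement TGACCTA. They lie at chr3:89135981-89136007 for Pklr, chr9:44396808-44396834 for Slc37a4 and chr11:101367652-101367678 for G6pc, all on the plus strand.
Pklr: gaaaaacggaTGACCTAggggaaggga
Slc37a4: cgaaacgtaaTAGGTCAtgtggtgctc
G6pc: agggctggatTGACCTAcagactgaat
The cores end 145, 122 and 48 bases before the RefSeq starts of Pklr, Slc37a4 and G6pc, and the last lies inside the longer first exon that GENCODE gives G6pc. The hexamer AGGTCA, which is part of that core, occurred for 4 members, the same 3 and Slc2a2, against 15.8% of genes. TGACG occurred for 3 members, Ppargc1a, Pck1 and Slc37a4, against 19.8% of genes, and the full palindrome TGACGTCA, which contains it, for 0, against 1.77%. The E-box CACGTG occurred only for Pcx among the 9, against 6.86% of genes, and TGTTCT, a piece of the glucocorticoid response element, for 0, against 18.2%. These are matches of letters in 13 windows and not measured binding sites.

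Per length of transcript, the members spanned a wide range of abundance. Fbp1, which removes a phosphate from fructose 1,6-bisphosphate, had the highest mean level over the 12 livers, at 535 RPKM (reads scaled to library size and exon length), rank 89 of 13689 genes with a length. Pck1, the cytosolic phosphoenolpyruvate carboxykinase, followed at 491 RPKM, rank 95. Fbp1 differed between its lowest and highest library by 1.51-fold and Pck1 by 9.54-fold, so their order was not the same in every liver. Pcx, the mitochondrial pyruvate carboxylase, was at 121 RPKM and G6pc, the catalytic subunit of glucose-6-phosphatase, at 112 RPKM, and their library ranges overlapped. Pklr, which encodes liver pyruvate kinase, Slc37a4, which carries glucose 6-phosphate into the endoplasmic reticulum, and Slc2a2, the GLUT2 transporter of the hepatocyte membrane, followed at 78.5, 60.9 and 44.4 RPKM, again with overlapping ranges. Pfkl, the liver phosphofructokinase, was lower at 7.27 RPKM, and Ppargc1a, a coactivator rather than an enzyme, was lowest at 1.88 RPKM, rank 8536. Neither of these ranges met that of the next member. Exons of Pklr share 711 of their 3236 bases with Hcn3 on the other strand. Reads were counted without strand, so those in the shared part could not be assigned to either gene. The level of Pklr was still divided by all 3236 bases, so it and its place in this order may be too low. No other member shared exon bases with a neighbor.

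**Figure D1:**
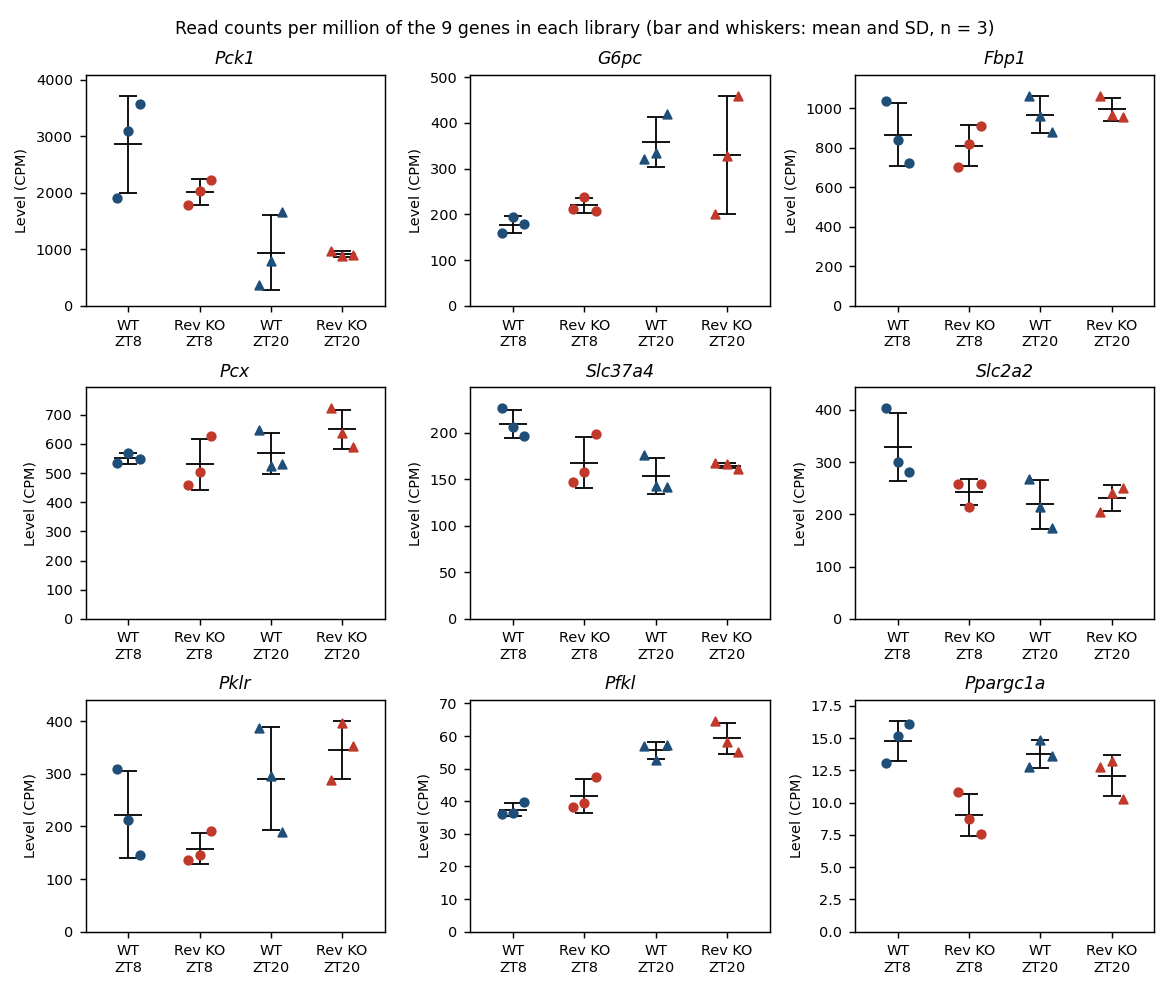
Level of each of the 9 genes (CPM, linear axis from 0) in the 12 libraries, with blue for WT, red for Rev KO, circles for ZT8 and triangles for ZT20. Bars and whiskers are the mean and SD of 3 livers. Ppargc1a at ZT8 lay between 7.59 and 10.8 CPM in Rev KO, below all 3 WT livers, and Pfkl was higher at ZT20 than at ZT8 in both genotypes.

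At ZT8, Ppargc1a was the member that differed between genotypes. It was 1.63-fold lower in Rev KO liver, whereas none of the 5 gluconeogenic genes, the transporter gene or the 2 glycolytic genes passed the test. Ppargc1a had 13.1, 15.1 and 16.1 CPM in the 3 WT livers and 10.8, 8.72 and 7.59 CPM in the 3 Rev KO livers. All Rev KO values lay below all WT values. The log2 fold change was -0.71 ± 0.14 (SE, n = 3 against 3, edgeR quasi-likelihood test, adjusted p = 0.00525, exact permutation p = 0.1, the smallest that 3 against 3 allows). Thus 1 of 9 members was called, in a comparison in which 8.45% of the 14488 genes tested were called. The members did not overlap between genotypes for 3 of 9 genes, Ppargc1a, G6pc and Slc2a2, against 25.6% of all genes. The fold change was negative for 7 of the 9, with a median of -0.32 on the log2 scale against 0.00 for all genes.

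The Ppargc1a call was lost without replicates 2 and 3 of WT at ZT8, where the log2 fold change was -0.54 (edgeR quasi-likelihood test, adjusted p = 0.198), an alternative chosen after seeing the data. It was kept when each of the 12 libraries was left out in turn, with an adjusted p of at most 0.0301. The WT liver with low acute-phase transcripts had the lowest Ppargc1a level of the 3 WT livers, and it was still above the highest Rev KO value. All 5 acute-phase genes were lower in Rev KO at ZT8, none of 4 Kupffer cell markers was called although their sum was between 232 and 373 CPM in WT and between 201 and 266 CPM in Rev KO, and 1 of 4 bile duct markers, Sox9, was higher in Rev KO, where the 4 summed to between 9.97 and 15.5 CPM against 4.83 to 7.44 CPM in WT. The part of these markers in the Ppargc1a result was not tested beyond leaving out the 2 livers.

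Among the gluconeogenic genes at ZT8, Pck1 had 1909, 3093 and 3578 CPM in WT and 1780.4, 2023 and 2230.4 CPM in Rev KO. The WT livers spread more widely and the ranges overlapped. The log2 fold change was -0.51 ± 0.46 (SE, n = 3 against 3, edgeR quasi-likelihood test, adjusted p = 0.559), and without the 2 acute-phase-high livers it was 0.07. G6pc went the other way, with 159, 195 and 179.6 CPM in WT and 212, 239 and 208 CPM in Rev KO. These values did not overlap, but the log2 fold change of 0.30 ± 0.25 (SE) did not pass the test (edgeR quasi-likelihood, adjusted p = 0.506).

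Slc37a4 and Slc2a2, which carry glucose 6-phosphate and glucose across membranes, both had lower means in Rev KO at ZT8. Slc37a4 had 226, 207 and 197 CPM in WT and 147, 158 and 199 CPM in Rev KO, where only replicate 3 reached the WT range. The log2 fold change was -0.32 ± 0.11 (SE, edgeR quasi-likelihood test, adjusted p = 0.0868), and without replicate 3 of Rev KO at ZT8 it was -0.46 with an adjusted p of 0.013. Slc2a2 had 403, 300.3 and 281 CPM in WT and 257, 213 and 258 CPM in Rev KO, so the groups did not overlap. Its log2 fold change of -0.43 ± 0.16 (SE) had an adjusted p of 0.131 in the same test. Without the 2 acute-phase-high livers, G6pc was at 0.46 (adjusted p = 0.724), Slc37a4 at -0.43 (0.219) and Slc2a2 at -0.73 (0.0929), and none passed. The 95% intervals of both, from -0.56 to -0.09 for Slc37a4 and from -0.79 to -0.08 for Slc2a2, did not include 0 before adjustment over all genes.

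Fbp1, Pcx, Pklr and Pfkl overlapped between genotypes at ZT8, with log2 fold changes of -0.10, -0.05, -0.50 and 0.16 and adjusted p values from 0.319 to 0.842. For Fbp1, Pcx and Pfkl the 95% intervals stayed within a log2 fold change of -0.38 to 0.35. For Pklr, whose WT livers had 309, 212 and 146 CPM and whose Rev KO livers had 137, 145 and 191 CPM, the interval ran from -1.23 to 0.23, so a large difference could not be told from none. Without the 2 acute-phase-high livers the log2 fold changes were -0.36 for Fbp1 (adjusted p = 0.301), -0.98 for Pklr (0.303), -0.01 for Pcx (0.986) and 0.20 for Pfkl (0.578).

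At ZT20 none of the 9 members was called in Rev KO against WT liver, in a comparison in which 3.63% of genes were called. DESeq2 also called 0, and 0 had an unadjusted p under 0.05 in edgeR. For none of the 9 were the genotypes free of overlap, against 22.5% of all genes. Ppargc1a had 12.7, 14.9 and 13.6 CPM in WT and 12.8, 13.2 and 10.3 CPM in Rev KO, with a log2 fold change of -0.18 ± 0.13 (SE, edgeR quasi-likelihood test, adjusted p = 0.599). Intervals were narrow for Pfkl, from -0.10 to 0.28, and Slc37a4, from -0.13 to 0.34, and wide for Pck1, from -1.07 to 1.00. Pck1 had 375, 791 and 1664 CPM in WT and 974, 881 and 906 CPM in Rev KO, so that the Rev KO livers lay together in the middle of the WT range. G6pc showed the reverse arrangement, with 320.1, 334 and 420.2 CPM in WT and 202, 327 and 459.7 CPM in Rev KO.

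**Figure D2:**
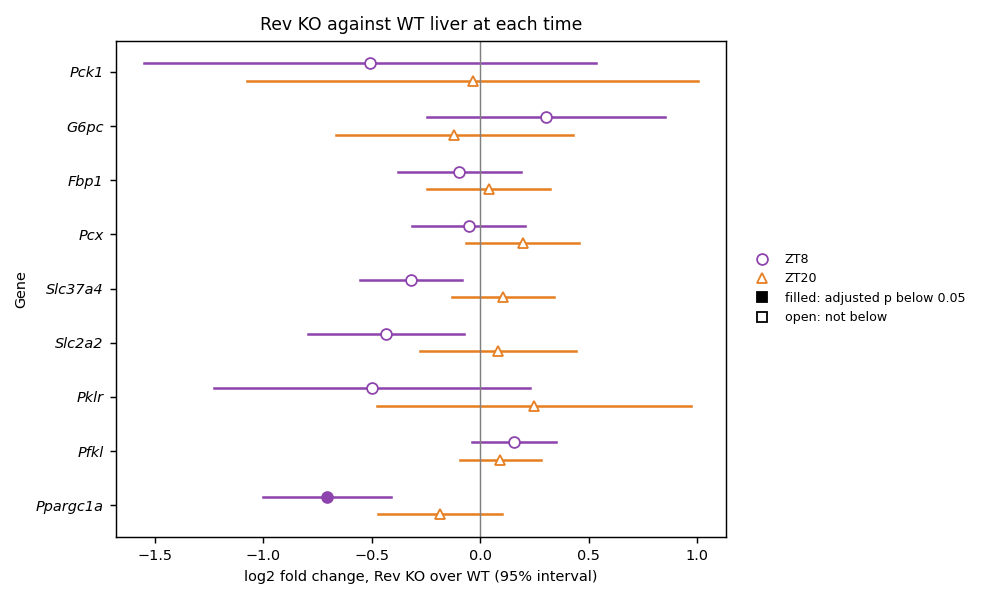
Log2 fold change of Rev KO over WT liver for the 9 genes at ZT8 (purple circles) and ZT20 (orange triangles), with 95% intervals from the edgeR fit. Filled symbols passed an adjusted p of 0.05, which only Ppargc1a at ZT8 did, at -0.71. The intervals of Pck1 and Pklr were the widest.

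The genotype effect at ZT8 minus that at ZT20 was tested directly, and 0 of 9 members passed (edgeR quasi-likelihood test, 0 of 9 also in DESeq2), against 5.88% of genes. An unadjusted p under 0.05 was found for 3 members, Ppargc1a, Slc37a4 and Slc2a2, with differences of -0.52 ± 0.19, -0.43 ± 0.16 and -0.52 ± 0.23 (SE) on the log2 scale and adjusted p values of 0.138, 0.134 and 0.243. Although Ppargc1a passed at ZT8 and not at ZT20, the effects at the 2 times were thus not shown to differ. Leaving out replicate 1 of Rev KO at ZT8 made the difference for Ppargc1a -0.68 with an adjusted p of 0.0472, and leaving out replicate 3 of that group made that for Slc37a4 -0.56 with an adjusted p of 0.0237. Without the 2 acute-phase-high livers, the differences for Ppargc1a, Slc37a4 and Slc2a2 were -0.36, -0.54 and -0.82, with adjusted p values of 0.542, 0.181 and 0.119.

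Between ZT8 and ZT20 in WT liver, Pck1, Slc37a4 and Slc2a2 fell, G6pc and Pfkl rose, and Fbp1, Pcx, Pklr and Ppargc1a did not pass the test. Thus 5 of 9 members were called, against 27.7% of genes, and the same 5 did not overlap between times, against 42.3% of genes. G6pc, the catalytic subunit of glucose-6-phosphatase, and Slc37a4, the carrier of glucose 6-phosphate, moved in opposite directions. The G6pc call was lost in 2 of 19 alternatives. This comparison shares its WT livers with the genotype comparisons above.

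G6pc was 2.01-fold higher at ZT20 than at ZT8 in WT, with a log2 fold change of 1.01 ± 0.25 (SE, n = 3 against 3, edgeR quasi-likelihood test, adjusted p = 0.0133). Slc37a4 was 1.37-fold lower, from 197 to 226 CPM at ZT8 to 141, 143 and 176 CPM at ZT20 (log2 fold change -0.45 ± 0.11, adjusted p = 0.00653 in the same test). Slc2a2 was lower as well (-0.58 ± 0.17, adjusted p = 0.0195), with 267, 214 and 175 CPM at ZT20. Pfkl was 1.49-fold higher, with 36.2, 36.3 and 39.8 CPM at ZT8 and 56.8, 52.6 and 57.3 CPM at ZT20 (0.57 ± 0.09, adjusted p = 0.000241). The Pfkl values were close together within each time and far apart between times, and the Slc37a4 and Pfkl calls were kept in all 19 alternatives run. Slc2a2 lost its call in 5 of them, among these without replicate 1 of WT at ZT8 (adjusted p = 0.0553) and without replicates 2 or 3 of WT at ZT20 (0.066 and 0.0556), and G6pc without replicate 1 of WT at ZT8 (0.0525).

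Pck1 was 3.03-fold lower at ZT20 than at ZT8 in WT (log2 fold change -1.60 ± 0.47, SE, edgeR quasi-likelihood test, adjusted p = 0.0333), with no overlap between 1909 to 3578 CPM and 375 to 1664 CPM. The call was kept in only 10 of 19 alternatives, where the adjusted p ranged from 0.00113 to 0.411. Among single libraries it was lost without WT replicates 2 or 3 at ZT8 (adjusted p = 0.0837 and 0.104), WT replicate 2 at ZT20 (0.108) or any of the 3 Rev KO replicates at ZT20 (0.0512 to 0.0516). Without replicate 3 of WT at ZT20 the log2 fold change reached -2.31. Without the 2 acute-phase-high livers Pck1 was -1.02 (adjusted p = 0.411) and G6pc 1.16 (0.142), both no longer called, whereas Slc37a4 (-0.57, 0.0297), Slc2a2 (-0.89, 0.0134) and Pfkl (0.61, 0.00808) passed.

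In Rev KO liver, 3 members were called higher at ZT20 than at ZT8, Pklr, Pfkl and Ppargc1a, against 17.5% of genes called. None was called lower, although Pck1 had lower values at ZT20, given below. The change of Pck1 over time was not shown to differ between genotypes (edgeR quasi-likelihood test of the interaction, adjusted p = 0.75). The times did not overlap for 4 members, Pck1, Fbp1, Pklr and Pfkl, against 35.0% of genes. Pklr was 2.19-fold higher, with 137, 145 and 191 CPM at ZT8 and 287, 395 and 352 CPM at ZT20 (log2 fold change 1.13 ± 0.32, SE, n = 3 against 3, edgeR quasi-likelihood test, adjusted p = 0.0428). Pfkl was 1.42-fold higher, with 38.1, 39.3 and 47.5 CPM at ZT8 and 64.5, 58.3 and 55.1 CPM at ZT20 (0.51 ± 0.09, adjusted p = 0.00131). For both glycolytic genes every ZT20 liver exceeded every ZT8 liver. Ppargc1a was 1.34-fold higher (0.42 ± 0.14, adjusted p = 0.0472), and its ranges overlapped, since 10.3 CPM at ZT20 lay below 10.8 CPM at ZT8.

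The Pklr and Ppargc1a calls in Rev KO were each kept in 9 of 19 alternatives, with adjusted p values up to 0.128 and 0.179, and were lost without any 1 of 8 of the 12 libraries, whereas that of Pfkl was kept in all 19. The libraries without which Pklr lost its call were all 6 of Rev KO, with adjusted p values from 0.0585 to 0.128, and replicate 2 of each WT group. For Ppargc1a they were all 3 of WT at ZT20, replicate 2 of WT at ZT8, replicates 2 and 3 of Rev KO at ZT8 and replicates 1 and 2 of Rev KO at ZT20, with adjusted p values from 0.0553 to 0.179. With the replicate block, Pklr had an adjusted p of 0.07 and Ppargc1a of 0.0604. Pck1 was 2.19-fold lower at ZT20, with 1780.4, 2023 and 2230.4 CPM at ZT8 and 974, 881 and 906 CPM at ZT20. These Rev KO livers did not overlap, but Pck1 did not pass in the fit of all 12 libraries, which shares 1 estimate of the spread (-1.13 ± 0.46, adjusted p = 0.137). It passed in a fit of the 6 Rev KO livers alone (adjusted p = 0.000114) and without replicate 1 or 3 of WT at ZT20 (0.0246 and 0.0239). G6pc had a log2 fold change of 0.59 ± 0.25 (adjusted p = 0.138), which without replicate 1 of Rev KO at ZT20 was 0.84 (0.00242). Pcx was at 0.29 ± 0.12 (0.115), and passed without replicate 3 of Rev KO at ZT8 (0.43, 0.0263).

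Slc37a4 and Slc2a2, which fell in WT, had log2 fold changes of -0.03 ± 0.11 and -0.07 ± 0.16 (SE) in Rev KO. The difference between the genotypes in the change over time is the same quantity as the interaction given above, and neither gene passed that test. Marker genes also moved with time, in comparisons that called 27.7% of all genes in WT and 17.5% in Rev KO. Of the liver lobule markers in WT, 4 of 6 periportal genes rose and 1 fell, and 3 of 6 pericentral genes fell. The periportal sums in WT were between 5527 and 6452 CPM at ZT8 and between 8240 and 11977 CPM at ZT20. Of the 5 hepatocyte markers, 3 rose in WT and 1 in Rev KO. In WT, 2 of 4 Kupffer cell markers (Cd5l and Marco) and all 5 acute-phase genes fell. The acute-phase sum was high at ZT8 only in replicates 2 and 3. In replicate 1 it was 2031 CPM, below the 2240 to 2577 CPM of WT at ZT20. Of the 4 bile duct markers, 2 (Sox9 and Krt19) rose in WT, and in Rev KO Krt19 and the stellate cell marker Des rose. Cela2a of the pancreas list, which summed to at most 1.22 CPM in any liver, fell in both genotypes. In Rev KO 0 of 6 periportal and 3 of 6 pericentral genes passed, all lower at ZT20. Neither list had a gene called between genotypes, but at ZT8 their sums did not overlap. The periportal sum was between 5527 and 6452 CPM in WT and between 7041 and 7878 CPM in Rev KO. For the pericentral genes it was between 12838 and 14301 CPM in WT and between 11144 and 12093 CPM in Rev KO. At ZT20 both sums overlapped between genotypes. The part of these genes in the time and genotype comparisons was not tested.

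**Figure D3:**
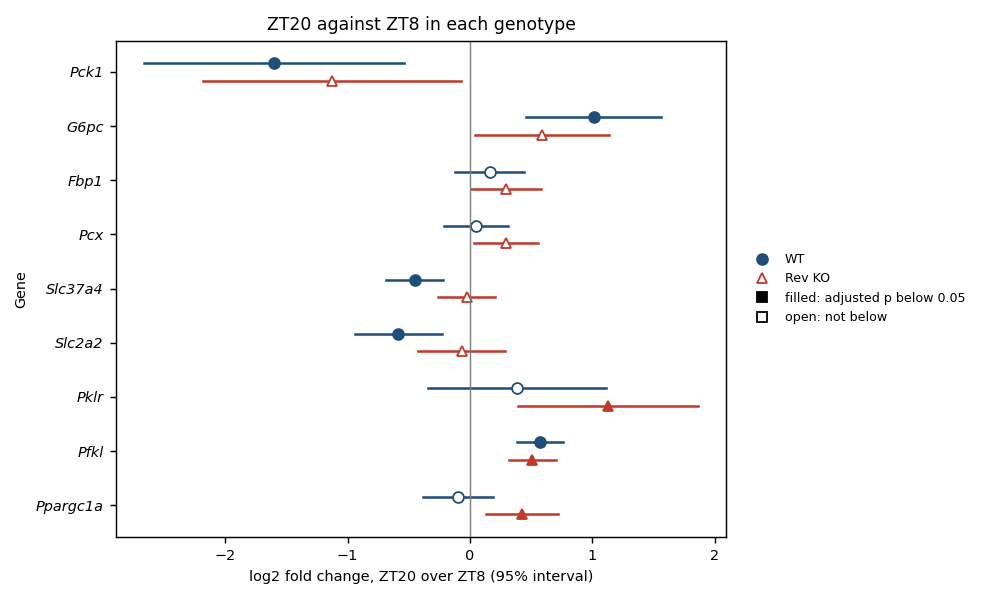
Log2 fold change of ZT20 over ZT8 for the 9 genes in WT (blue circles) and Rev KO (red triangles) liver, with 95% intervals and filled symbols for an adjusted p under 0.05. Pfkl was called higher in both genotypes, at 0.57 and 0.51, and Slc37a4 and Slc2a2 were called lower in WT alone, at -0.45 and -0.58.

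Pck1 and Pklr varied most among WT livers of the same group. The coefficient of variation of Pck1 was 30.0% in WT at ZT8 and 69.7% at ZT20, against 11.2% and 5.21% in Rev KO. That of Pklr was 36.9% and 33.9% in WT, against 18.6% and 15.8% in Rev KO. In both WT groups the liver with the least Pck1 had the most Pklr, Slc2a2, Fbp1 and Slc37a4, and the liver with the most Pck1 had the least of each. In Rev KO the liver with the most Pck1 had the most Pklr at ZT8 and the least at ZT20. The acute-phase sum was higher in the WT livers with more Pck1 at ZT8, but at ZT20 the livers with the least and the most Pck1 had sums of 2577 and 2439 CPM. This arrangement was noticed in the values and was not tested.

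The ratio of Pck1 to Pklr summed up this spread. Its log2 was 2.63, 3.87 and 4.61 in WT at ZT8 against 3.70, 3.80 and 3.54 in Rev KO, and -0.05, 1.42 and 3.13 in WT at ZT20 against 1.76, 1.16 and 1.36 in Rev KO. In both cases the Rev KO livers lay inside the WT range, and the means differed by -0.02 and -0.08 (exact permutation tests, two-sided, n = 3 against 3, p = 1 and 0.9, both 1 after adjustment over the 6 ratio tests run). The ratio of Fbp1 to Pfkl, which act on the same pair of metabolites, overlapped at both times, with differences of -0.24 and -0.05 (exact permutation p = 0.4 and 0.6, adjusted p = 0.8 and 0.9).

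**Figure D4:**
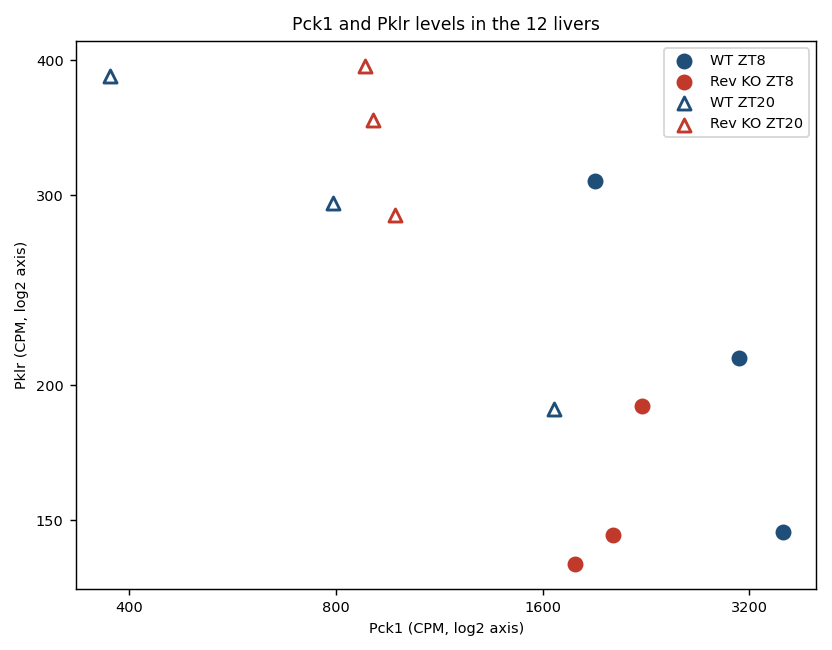
Pck1 against Pklr (both in CPM on log2 axes) in each of the 12 livers, blue for WT, red for Rev KO, filled circles for ZT8 and open triangles for ZT20. In each WT group the points run from high Pklr and low Pck1 to the reverse, from 375 to 1664 CPM of Pck1 at ZT20, whereas the Rev KO livers of each time lie close together in Pck1.

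Other genes of the pathway were taken from lists of glucose entry, shared steps, glycolysis, gluconeogenesis, pyruvate use and regulators, 91 genes in all, of which 89 were tested. The lists were chosen with earlier results of these data known. The shares called, here and over time below, therefore describe the lists and do not test the pathway. At ZT8, 6 of the 89 rose and 7 fell in Rev KO (edgeR quasi-likelihood test), 14.6% against 8.45% of all genes, and the median log2 fold change of the 89 was -0.06. At ZT20, 2 rose and 4 fell, 6.74% against 3.63% of all genes, with a median of -0.04. Of the 89, 12 differed in their genotype effect between times, 13.5% against 5.88%. The list of other glycolytic genes had 0 of 9 called in either genotype comparison, and the shared steps had 0 of 10 at ZT20 and 1 at ZT8.

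Among the regulators, Fgf21, a hormone that the liver releases in fasting, had opposite changes at the 2 times. It had 0.60, 0.60 and 0.31 CPM in WT and 3.53, 4.17 and 4.31 CPM in Rev KO at ZT8, a log2 fold change of 2.97 ± 0.34 (SE, edgeR quasi-likelihood test, adjusted p = 8.26e-05). At ZT20 it had 2.37, 1.64 and 1.16 CPM in WT and 0.21, 0.62 and 0.27 CPM in Rev KO, a log2 fold change of -2.19 ± 0.38 (adjusted p = 0.00334). The lowest library held 5 Fgf21 reads. Ppargc1b, the paralog of Ppargc1a, fell as well in Rev KO at ZT8, with 9.63, 12.7 and 11.9 CPM in WT and 5.14, 5.33 and 7.49 CPM in Rev KO (-0.92 ± 0.15, adjusted p = 0.00166). Like Ppargc1a it lost its call without replicates 2 and 3 of WT at ZT8 (-0.69, adjusted p = 0.118). Foxo3, a forkhead factor of the insulin response, fell by 0.54 on the log2 scale, and its call was kept in all 19 alternatives. Pde4d, a phosphodiesterase that degrades cAMP, fell by 0.90, but by 0.40 (adjusted p = 0.474) without these 2 livers. Hnf4a and Crebbp had log2 fold changes of 0.35 and -0.28, kept in 9 and 5 of 19 alternatives, which did not include the fit without these 2 livers.

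Among the genes of pyruvate use, Pdk4, a kinase that shuts off pyruvate dehydrogenase, was 3.47-fold higher in Rev KO at ZT8, with 1.67, 1.84 and 2.54 CPM in WT and 6.91, 6.72 and 7.25 CPM in Rev KO (log2 fold change 1.80 ± 0.24, SE, edgeR quasi-likelihood test, adjusted p = 0.000572). Pdk2, another of these kinases, fell by 0.37 on the log2 scale (adjusted p = 0.012). Slc16a1, a transporter of lactate and pyruvate, was 2.04-fold higher (1.03 ± 0.12, adjusted p = 9.91e-05). Among genes of glucose entry, Slc2a1, the GLUT1 transporter, was higher (0.73 ± 0.13, adjusted p = 0.00293) and Slc2a9, a transporter of urate, lower (-0.49 ± 0.06, adjusted p = 0.000239). The glycerol kinase gene, listed as Gyk, was higher (0.45 ± 0.08, adjusted p = 0.0037). Except for Pdk2 (0.113), each of these kept its call without the 2 acute-phase-high livers. Gapdh fell by 0.73 (adjusted p = 0.0493), but its counts, between 1.88 and 11.7 CPM, come from uniquely placed reads of a gene with many near-identical copies and are uncertain, and the call was kept in 7 of 19 alternatives.

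At ZT20, Fgf21 and 5 other genes passed. Gpd1, which interconverts dihydroxyacetone phosphate and glycerol 3-phosphate, was higher in Rev KO (log2 fold change 0.67 ± 0.10, SE, edgeR quasi-likelihood test, adjusted p = 0.000713), with 270, 239 and 226 CPM in WT and 379, 387 and 402 CPM in Rev KO. Mlxipl, which encodes the carbohydrate-responsive factor ChREBP, was lower (-0.43 ± 0.08, adjusted p = 0.00546). Both calls were kept in all 19 alternatives. Pck2, the mitochondrial form of phosphoenolpyruvate carboxykinase, was lower (-0.72 ± 0.15, adjusted p = 0.013) in 17 of 19. Got1, an aspartate aminotransferase, was lower (-0.67 ± 0.16, adjusted p = 0.0333) and Pdhb, a subunit of pyruvate dehydrogenase, higher (0.38 ± 0.10, adjusted p = 0.0401), in 7 and 13 of 19. The difference between times did not pass for Gpd1 (adjusted p = 0.0862), Pck2 (0.0753) or Pdhb (0.635), and at ZT8 Gpd1 and Pdhb were at 0.25 and 0.24.

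**Figure D5:**
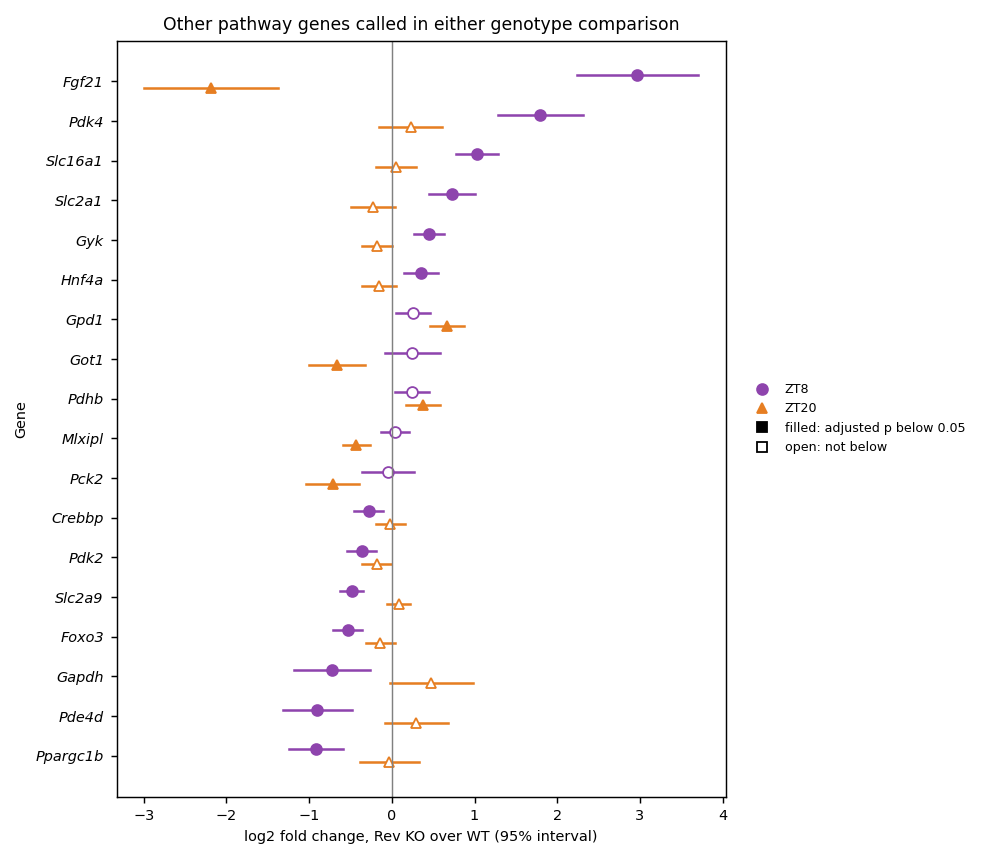
Log2 fold change of Rev KO over WT at ZT8 (purple circles) and ZT20 (orange triangles), with 95% intervals, for the 18 other pathway genes called in either comparison (filled symbols), ordered by their value at ZT8. Fgf21, at 2.97 and -2.19, is the gene with filled symbols at both times.

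Over time, 16 of the 89 pathway genes rose and 21 fell in WT, and 9 rose and 16 fell in Rev KO (edgeR quasi-likelihood test), in all 41.6% against 27.7% of all genes and 28.1% against 17.5%. Ppargc1b fell from ZT8 to ZT20 in both genotypes, by 1.59 and 0.71 on the log2 scale, which Ppargc1a did not. Pdk4 rose by 3.57 in WT and 2.00 in Rev KO. Fgf21 rose by 1.75 in WT and fell by 3.40 in Rev KO. Without replicates 2 and 3 of WT at ZT8, the rise of Fgf21 in WT (1.51, adjusted p = 0.0729) no longer passed.

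The genes whose profile over the 12 livers lay nearest to that of a member were ranked by the root mean square difference of centered log2 CPM among 12682 genes. Nearest to Ppargc1a were Zfp36l2, Tnfsf10 and Ptpn3, with differences of 0.12, 0.14 and 0.14 against 0.30 for the member's own spread. Nearest to Pck1 were Sipa1l2, Slc8b1 and Ung, at 0.41 to 0.43 against 0.90. Nearest to Pklr were Gm12715, Srebf1 and Acaca, at 0.21 to 0.23 against 0.54, and nearest to Pfkl were Prkar2a, Itpk1 and Gtf2ird1, at 0.08 to 0.09 against 0.29. For G6pc these were Cdc42ep5, Neu3 and 1010001N08Rik at 0.18 to 0.19 against 0.48, and the gene nearest to Slc37a4 was 2310022B05Rik at 0.08 against 0.21. For Slc2a2 the nearest were Lrrc28, Ddhd2 and Syde2, at 0.14 to 0.15 against 0.29, and Slc37a4 came at rank 9. Of the other members ordered by nearness to Pck1, Slc37a4 came first, at rank 2824, and Slc2a2 next, at rank 4239. The rest lay between rank 8120 for Ppargc1a and rank 12347 for Pklr, with G6pc at rank 12168.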

How the data were processed

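Liver RNA of 12 mice was sequenced, 3 per group. Per the study's methods, the authors used TopHat for alignment to mm10 and HTSeq for counting by gene symbol, which took only reads placed at 1 position (union mode, minimum alignment quality 10, without strand). The versions of these tools and the annotation release are not given in the sources used here, and the submitters' processing notes name DESeq2 1.6.3. The deposited values are raw read counts per gene, 1 file per liver. Reads without a gene took between 8.50% and 9.95% of the uniquely placed reads, and ambiguous reads between 3.08% and 3.62%. These rows were left out.

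Counts were tested with edgeR 4.0.16 in R 4.3.3: TMM factors, filterByExpr (14488 genes kept), robust quasi-likelihood tests on 4 group means over all 12 libraries, and Benjamini-Hochberg adjustment over all genes at 0.05. Contrasts were Rev KO against WT at each time, their difference, and ZT20 against ZT8 in each genotype. Log2 fold changes are fitted values, SEs are the fold change divided by the root of F, and intervals cover 95%. CPM are counts scaled to library size, and RPKM were divided by GENCODE M21 exon length (13689 genes). Ratios were compared with exact permutation tests (SciPy 1.17.1), and DESeq2 1.42.0 was an alternative. No 2 libraries agreed within sampling noise. On simulated counts the tests were checked before use.

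Named were the 9 members, pathway genes called in a genotype comparison or the interaction (at most 12 per contrast, by adjusted p), the 3 nearest genes of each member called in any contrast, and Nr1d1 and Saa1. Some results that these rules cover are not reported here. Other genes named (markers) belong to the marker lists. The members and lists were chosen with earlier results of these data known. Gk and Adgre1 were matched through RefSeq synonyms (Gyk, Emr1). Upstream windows of 250 bases came from RefSeq. Alternatives were another scaling, DESeq2, other filters, fits of 6 libraries, a replicate block, a stricter threshold and leaving out libraries.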

Additional observations from a re-analysis of the deposited data

Results flagged for a closer look

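For 12 other genes of the pathway the genotype effect differed between the times, by the edgeR quasi-likelihood test of the difference (effect at ZT8 minus effect at ZT20, log2 scale, adjusted p under 0.05). The difference was positive for Fgf21 (5.16), Pdk4 (1.57), Slc16a1 (0.98), Slc2a1 (0.95), Got1 (0.92), Gyk (0.63), Hnf4a (0.50) and Mlxipl (0.47). It was negative for Gapdh (-1.20), Pde4d (-1.20), Ppargc1b (-0.89) and Slc2a9 (-0.57). Fgf21, Pdk4, Slc16a1, Slc2a1, Gyk and Slc2a9 passed in every alternative that gave them a value, the fit without replicates 2 and 3 of WT at ZT8 included. Without those 2 livers, Pde4d was at -0.70 (adjusted p = 0.2), Ppargc1b at -0.66 (0.259), Got1 at 1.07 (0.0999), Hnf4a at 0.55 (0.101) and Mlxipl at 0.43 (0.119). Gapdh, whose counts are uncertain, passed there (-1.55, 0.0167). Over the 18 alternatives, the call was kept in 7 for Got1, 7 for Hnf4a, 9 for Ppargc1b, 10 for Gapdh, 14 for Mlxipl and 17 for Pde4d. None of the 9 control genes was among them.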

How the results depend on the processing

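Of the member results compared over the alternatives, 781 kept direction and side of the threshold, 37 lost and 9 gained a call, and 19 changed sign. Most of these results were not called in the main fit, so the 781 say little about the calls. The 37 losses were 10 each for Pklr and Ppargc1a over time in Rev KO and 1 for Ppargc1a at ZT8. The others were 9 for Pck1, 5 for Slc2a2 and 2 for G6pc over time in WT. The number of the 9 members called at ZT8 ranged from 1 to 2 with single libraries left out (2 without replicate 3 of Rev KO at ZT8) and was 0 without replicates 2 and 3 of WT at ZT8. For the difference between times it ranged from 0 to 1. For time in WT it was 3 without a filter on low counts, 3 with only the 6 samples compared, 3 without replicates 2 and 3 of WT at ZT8, 2 at an adjusted p of 0.01, and 3 to 5 with single libraries left out. For time in Rev KO it was 1 at an adjusted p of 0.01 and 1 to 3 with single libraries left out. With the replicate block it was 1, the other counts stayed at 1, 0, 0 and 5, and Pck1 at ZT20 turned to 0.16. The deviations of same-numbered libraries from their group means correlated by -0.0246 on average (over 0.1 in 1 of 18 pairs), against 0.0118 for other pairs. Deviations within a group cancel, so both averages are tied to each other and cannot exclude that the numbers paired the samples. Without replicates 2 and 3 of WT at ZT8, signs turned for Pck1 at ZT8 (0.071) and in the difference (0.10), in time in WT for Fbp1 (-0.11), Pklr (-0.095), Ppargc1a (0.070) and Saa1 (0.17), for Saa1 in the difference (0.46, from -5.52), and for the Pck1 to Pklr ratio at ZT8 (1.06). With single libraries left out, these log2 values crossed 0. At ZT20 between genotypes, Pck1 ran from -0.42 to 0.66, G6pc from -0.44 to 0.14, Fbp1 from -0.020 to 0.11 and Slc2a2 from -0.051 to 0.25. At ZT8, Fbp1 ran from -0.21 to 0.050 and Pcx from -0.19 to 0.038. In the difference, Fbp1 ran from -0.25 to 0.0063 and Pfkl from -0.042 to 0.13. Over time, Pcx ran from -0.060 to 0.10 in WT, and Slc37a4 from -0.11 to 0.11 and Slc2a2 from -0.15 to 0.014 in Rev KO. The ratio of Fbp1 to Pfkl at ZT20 ran from -0.14 to 0.0042, and that of Pck1 to Pklr from -0.56 to 0.44 at ZT8 and from -0.85 to 0.74 at ZT20. The cause was not tested. Over all genes, calls at ZT8 numbered 1224, against 769 with 6 samples, 542, 749 and 607 without replicate 2 or 3 of WT or replicate 2 of Rev KO at ZT8, and 346 without both WT livers. At ZT20 they numbered 526, against 322, 239 and 262 without replicate 1 or 2 of WT or replicate 2 of Rev KO. For the difference they fell from 852 to as few as 493, for time in WT from 4018 to 1795 without both WT livers, and for time in Rev KO from 2530 to 1566. At this depth, Ppargc1a rested on between 155 and 340 reads per library and Fgf21 on as few as 5.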
